A study of Mus musculus with 19 samples.

Results

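The lysosome and autophagy genes described here are 41 listed genes that encode lysosomal enzymes, lysosomal membrane proteins, subunits of the lysosomal proton pump, autophagy proteins and 2 transcription factors of the MiT/TFE family. The list was drawn up because Atp6v0d1, a proton pump subunit, had lower signal with FGF and higher signal with U0126 on these same arrays. The values of Atp6v0d1 are therefore a description, with no test, and counts of other members in the same contrasts do not support that pattern independently. Genes were matched to probe sets by symbol, and 40 of the 41 genes had at least 1 probe set, 95 in all. The annotation used here names no probe set for Cd63. All 40 genes were among the 14996 genes tested, of 18193 genes with a probe set in the whole series, so 39 members other than Atp6v0d1 have tests.

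The study asked how ERK signalling shapes gene expression as fibroblasts leave quiescence for S phase. RNA came from NIH3T3 cells, an established mouse fibroblast line, and was measured on 19 whole-genome expression arrays. The treated arms received basic FGF at 50 ng/ml and U0126 at 20 µM, which blocks MEK, the enzyme that phosphorylates and switches on ERK. U0126 was added at -0.5 h relative to FGF and the cells were taken at 1 h (1 array) or at 4, 7 or 12 h (2 arrays each). In late arms U0126 was added 1 h after FGF with cells taken at 7 h, or 7 h after FGF with cells taken at 12 h (1 array each). Cells with FGF alone were taken at 1 h (1 array) and at 4, 7 and 12 h (2 arrays each). By the labels, every group with a single array was of experiment 1. Groups of 2 arrays held 1 array each of experiments 1 and 2. Quiescent cells, the only cells without FGF, were taken after 48 h in 0.1% serum (3 arrays: 1a, 1b and 2). The serum starvation preceded every arm. No array held cells starved for longer without FGF, so FGF and time in culture cannot be told apart. None held cells with U0126 but without FGF. The effect of U0126 on the response to FGF and its other effects therefore cannot be told apart.

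Array values are MAS5 signals, a linear intensity scale, with array medians between 60.2 and 88.3. Signals of different probe sets were not compared as levels. Of 8 fibroblast markers all were detected, with signals from 1034 to 46430. Of 8 macrophage markers, the leukocyte genes Ptprc and Itgam did not pass the filter for low signal. They read at most 36.2 over the 2 probe sets of Ptprc and 44.3 for Itgam. The other markers passed it. Cd14 read 620 to 1176, Lyz2 139 to 297 and Csf1r 106 to 254. Adgre1 read 29.7 to 93.5, Cd68 36.8 to 88.1 and Fcgr1 6.2 to 105.9. The summed macrophage markers read 1328 to 1495 on the 6 arrays with U0126 from -0.5 h at 4, 7 and 12 h, against 1594 to 1800 on the 6 arrays with FGF alone at those times and 1181 to 1422 on the quiescent arrays, and they read 1279.8 and 1873 with late U0126 at 7 and 12 h. Cd14 was the largest part of each sum. It rose with FGF at 12 h relative to quiescence (log2 difference 0.77, adjusted p = 0.0016 in limma). With U0126, averaged over 4, 7 and 12 h, Cd14 fell (-0.35, adjusted p = 0.0076 in limma). The other macrophage markers that passed the filter were called in neither comparison. The part of the macrophage markers in the members' results was not tested. The labels do not say whether replicates were separate cultures, so p-values measure only the spread between these samples, which may be technical. In whole-culture RNA, fewer cells expressing a gene and less of its RNA per cell cannot be told apart.

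Lysosomes are acidic organelles in which hydrolases break down proteins, lipids, glycans and nucleic acids. The vacuolar ATPase pumps protons into the lumen, membrane proteins such as LAMP1 and LAMP2 line it, and transporters and channels export products and ions. Macroautophagy delivers cytoplasm to lysosomes: the ULK1 kinase and the Beclin 1 lipid kinase complex start the membrane, WIPI proteins bind its lipid, and LC3 and GABARAP proteins are attached to it and bind cargo receptors such as p62, the product of Sqstm1. TFEB and MITF are basic helix-loop-helix leucine zipper factors that bind E-boxes in promoters of many such genes. Growth-factor pathways, mTORC1 and ERK among them, are known to phosphorylate TFEB, which keeps it in the cytoplasm. Those are properties of the proteins, which the arrays did not measure.

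Promoter windows, from 250 bases before to 50 bases after the annotated gene start, were read from RefSeq sequences of build GRCm38.p6 for 35 of the 41 members. The E-box core CACGTG, which reads the same on both strands, stood in the windows of 11 of the 35 members (31.4%), against 8.09% of all 27025 genes with a window. The 11 include Atp6v0d1, which led to the list. The shares over all genes also count windows on a chromosome that was not read for members, and genes beyond those tested on the arrays. The longer form TCACGTG, searched on both strands, stood in 9 members (25.7%) and in 4.29% of all genes. TCACGTGA stood in 6 members (17.1%) and in 1.12% of all genes. With G added before it and C after it, this form stood in none of the members and in 0.37% of all genes. Each of these forms contains the shorter ones, so the counts overlap. A match is a run of letters in this window and does not show a bound site.

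The stretches printed here are those of Lamp1, the member with the most matches, of Mcoln1, of pump and enzyme genes described below, and of Atp6v0d1, which led to the list. Every sequence reads 5′ to 3′ on the gene's own strand, and capitals mark CACGTG. Lamp1 (chr8:13159051-13159160, plus strand) has 4 matches within the 110 bases before its start, Mcoln1 (chr8:3500409-3500518, plus strand) has 2, and Gla (chrX:134601006-134601255, minus strand) has 2 in the distal part of its window. Atp6v1a (chr16:44139260-44139419, minus strand), Naglu (chr11:101069984-101070093, plus strand) and Ctsd (chr7:142387828-142387937, minus strand) show 1 each in the stretch printed. In Atp6v0d1 (chr8:105566055-105566124, minus strand) the match spans the start, which falls 60 bases into the printed stretch.
Lamp1: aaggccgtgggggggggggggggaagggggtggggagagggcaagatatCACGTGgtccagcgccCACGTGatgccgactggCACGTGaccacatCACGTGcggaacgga
Mcoln1: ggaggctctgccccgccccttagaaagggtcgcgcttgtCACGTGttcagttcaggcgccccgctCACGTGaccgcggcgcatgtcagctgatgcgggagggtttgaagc
Atp6v1a: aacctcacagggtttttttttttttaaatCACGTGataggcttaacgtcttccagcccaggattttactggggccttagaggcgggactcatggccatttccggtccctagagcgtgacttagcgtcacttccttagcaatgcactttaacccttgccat
Naglu: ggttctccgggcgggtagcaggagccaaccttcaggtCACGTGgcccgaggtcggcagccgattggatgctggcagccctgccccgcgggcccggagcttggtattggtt
Ctsd: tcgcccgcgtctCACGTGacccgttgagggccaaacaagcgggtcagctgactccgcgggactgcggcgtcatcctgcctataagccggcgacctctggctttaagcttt
Gla: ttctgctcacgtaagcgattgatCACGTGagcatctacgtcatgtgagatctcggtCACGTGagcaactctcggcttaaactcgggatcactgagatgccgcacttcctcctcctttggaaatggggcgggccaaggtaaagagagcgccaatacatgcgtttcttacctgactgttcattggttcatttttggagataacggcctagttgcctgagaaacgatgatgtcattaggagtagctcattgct
Atp6v0d1: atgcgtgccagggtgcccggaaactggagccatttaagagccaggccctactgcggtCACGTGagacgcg

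The matches not printed are 2 in Ctsa, a second in Ctsd at position -245, and 1 each in Ctsf, Ctsl and Glb1. In the comparison of U0126 with FGF described below, 5 of the 10 tested members with CACGTG rose, with a median log2 difference of 0.26, and 10 of the 23 tested members with a window but no CACGTG rose, with a median of 0.28, while 1 fell. Of all genes 11.7% rose in that comparison, with a median of 0.01. Lamp1, with its 4 matches, and Atp6v1a, with 1, both rose, and Ctsl, with 1, did not pass. The map of E-box positions shows where the matches sit relative to the start.

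**Figure D1:**
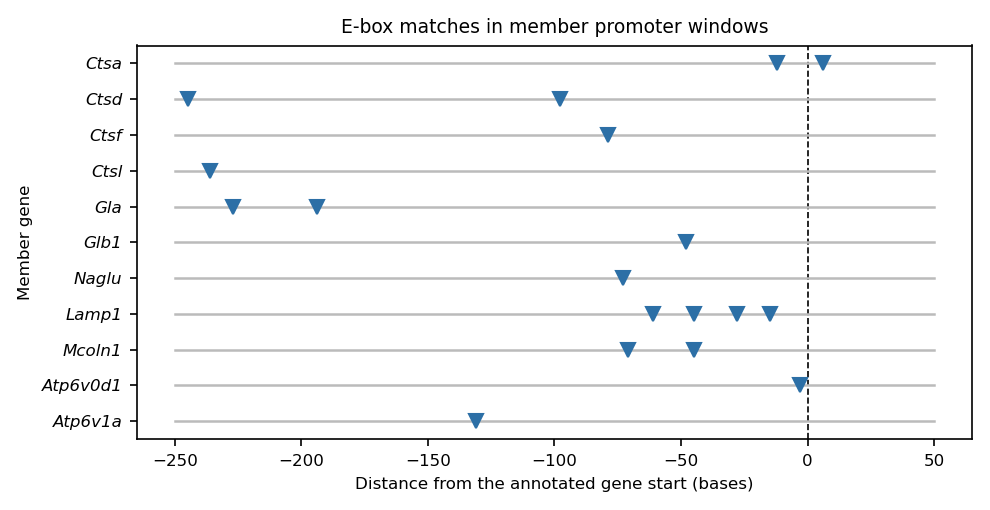
Positions of CACGTG in the promoter windows of the 11 members that have it. The x axis is the distance from the annotated gene start in bases, grey lines span the window from 250 bases before to 50 after the start, and each triangle is 1 match, of which Lamp1 has 4.

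Atp6v0d1 encodes a subunit that helps hold the membrane sector of the proton pump together. Its signal with FGF and U0126 was 5552 and 4423 at 4 h, 4241 and 3621 at 7 h, and 3832 and 2884 at 12 h. With FGF alone it was 4130 and 3441 at 4 h, 2358 and 2647 at 7 h, and 2219 and 1641 at 12 h. The quiescent arrays read 3593, 3915 and 3893. Both FGF arrays at 7 h and both at 12 h lay below every quiescent array and below every array with U0126, while those at 4 h lay within the range of the U0126 arrays. The mean log2 difference between FGF and quiescent cells was -0.02 at 4 h, -0.61 at 7 h and -0.997 at 12 h, and that between U0126 and FGF was 0.39, 0.65 and 0.80 at these times. These values chose the list and are given without a test.

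Across the other 39 members the mean effect of U0126 over 4, 7 and 12 h was upward for most. Limma's main fit had no term for the experiment number. Adjusted p comes from it unless another fit, such as that with the experiment as a block, is named. In the main fit 19 members rose and 1 fell with U0126 at an adjusted p under 0.05. Of all 14996 genes, 22.0% were called in this comparison (11.7% higher and 10.3% lower). The median log2 difference was 0.30 over the members and 0.01 over all genes. Because the list was chosen on this contrast, nothing is read from the member count against that background. On all 6 U0126 arrays of these times the signal exceeded that on all 6 FGF arrays for 9 members (4.69% of all genes): Hexa, Neu1, Lipa, Asah1, Npc1, Mcoln1, Atp6v1a, Mitf and Sqstm1. For none of the 39 did all 6 U0126 arrays lie below (3.64% of all genes).

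**Figure D2:**
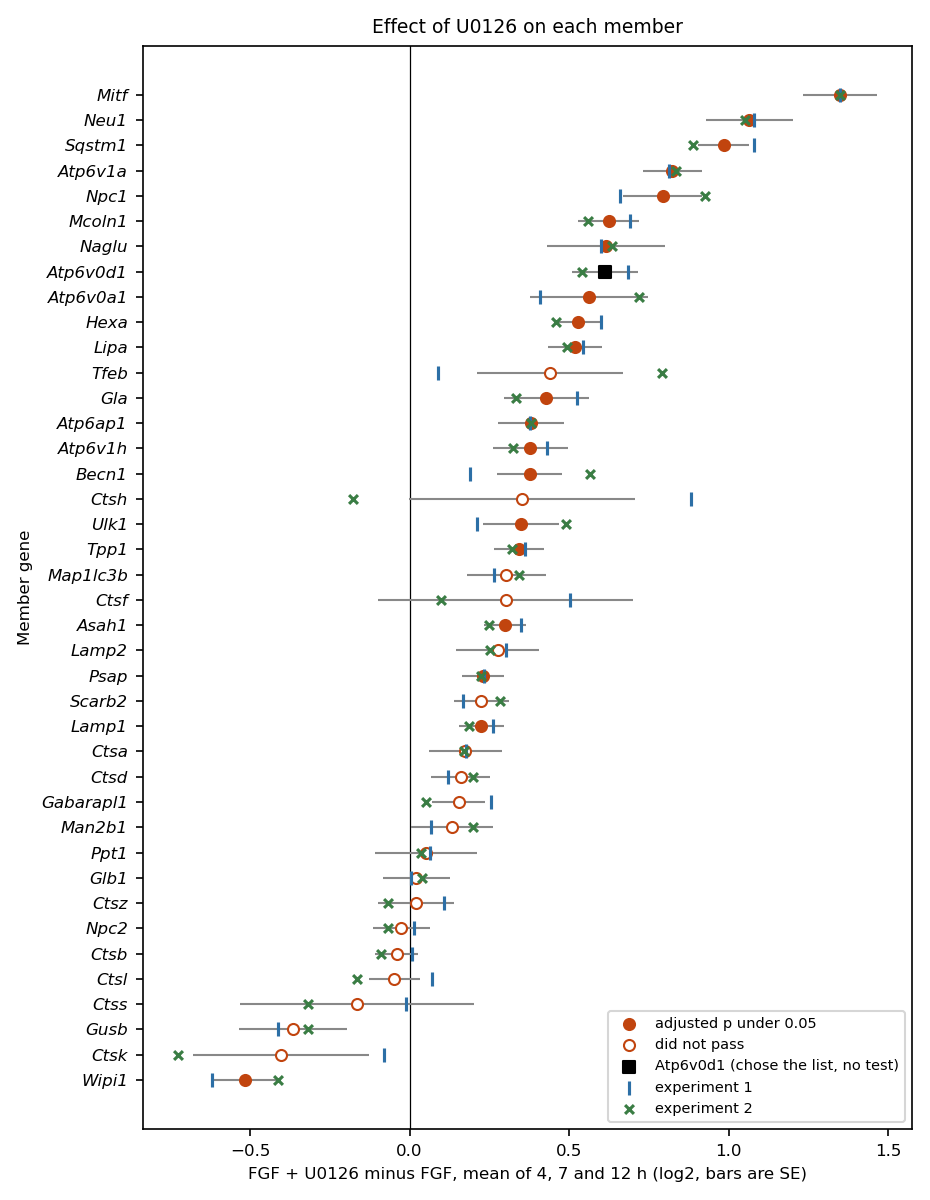
Effect of U0126 on each of the 40 measured members, as the log2 difference of FGF + U0126 minus FGF averaged over 4, 7 and 12 h, with bars for the SE. Filled circles passed the adjusted limit, open circles did not, the square is Atp6v0d1 (no test), and ticks and crosses give the value in experiments 1 and 2. Mitf at 1.35 stands at one end and Wipi1 at -0.52 at the other.

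Mitf encodes a MiT/TFE factor best known from pigment cells and osteoclasts. With U0126 it read 719 and 660 at 4 h, 411 and 455 at 7 h, and 391 and 472 at 12 h. With FGF alone it was 183 and 237 at 4 h, 188 and 178 at 7 h, and 179 and 179 at 12 h. The quiescent arrays read 325, 353 and 269. All arrays with U0126 at these times were above all quiescent arrays, and all with FGF alone were below them. Averaged over the times, Mitf was 2.55-fold higher with U0126 (log2 difference 1.35, SE 0.12, adjusted p = 9.3e-07 in limma), and adjusted p was at most 8.4e-06 with any 1 of the 12 arrays left out. It fell with FGF relative to quiescence at 7 h (-0.68, adjusted p = 0.038) and 12 h (-0.71, adjusted p = 0.021). Without either of the FGF arrays of the time in question, neither of those calls was made (adjusted p 0.11 and 0.13 at 7 h, 0.088 and 0.086 at 12 h), and the 7 h call was also lost without quiescent replicate 1b (0.053) or 2 (0.065).

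Tfeb encodes the factor named as a master regulator of lysosomal genes. On arrays with U0126 it read 301 and 242 at 4 h, 221 and 286.5 at 7 h, and 240 and 250 at 12 h. With FGF alone it was 231 and 183 at 4 h, 212 and 228 at 7 h, and 268 and 68.8 at 12 h. The quiescent arrays read 329.9, 308.5 and 310.5. The groups with and without U0126 overlapped, and the lowest value of all came from 1 of the FGF arrays at 12 h. The mean log2 difference between U0126 and FGF was 0.44 (adjusted p = 0.21 in limma) and did not pass. The difference between FGF at 12 h and quiescence was -1.11 (adjusted p = 0.063). It passed with the experiment as a block (adjusted p = 0.020).

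**Figure D3:**
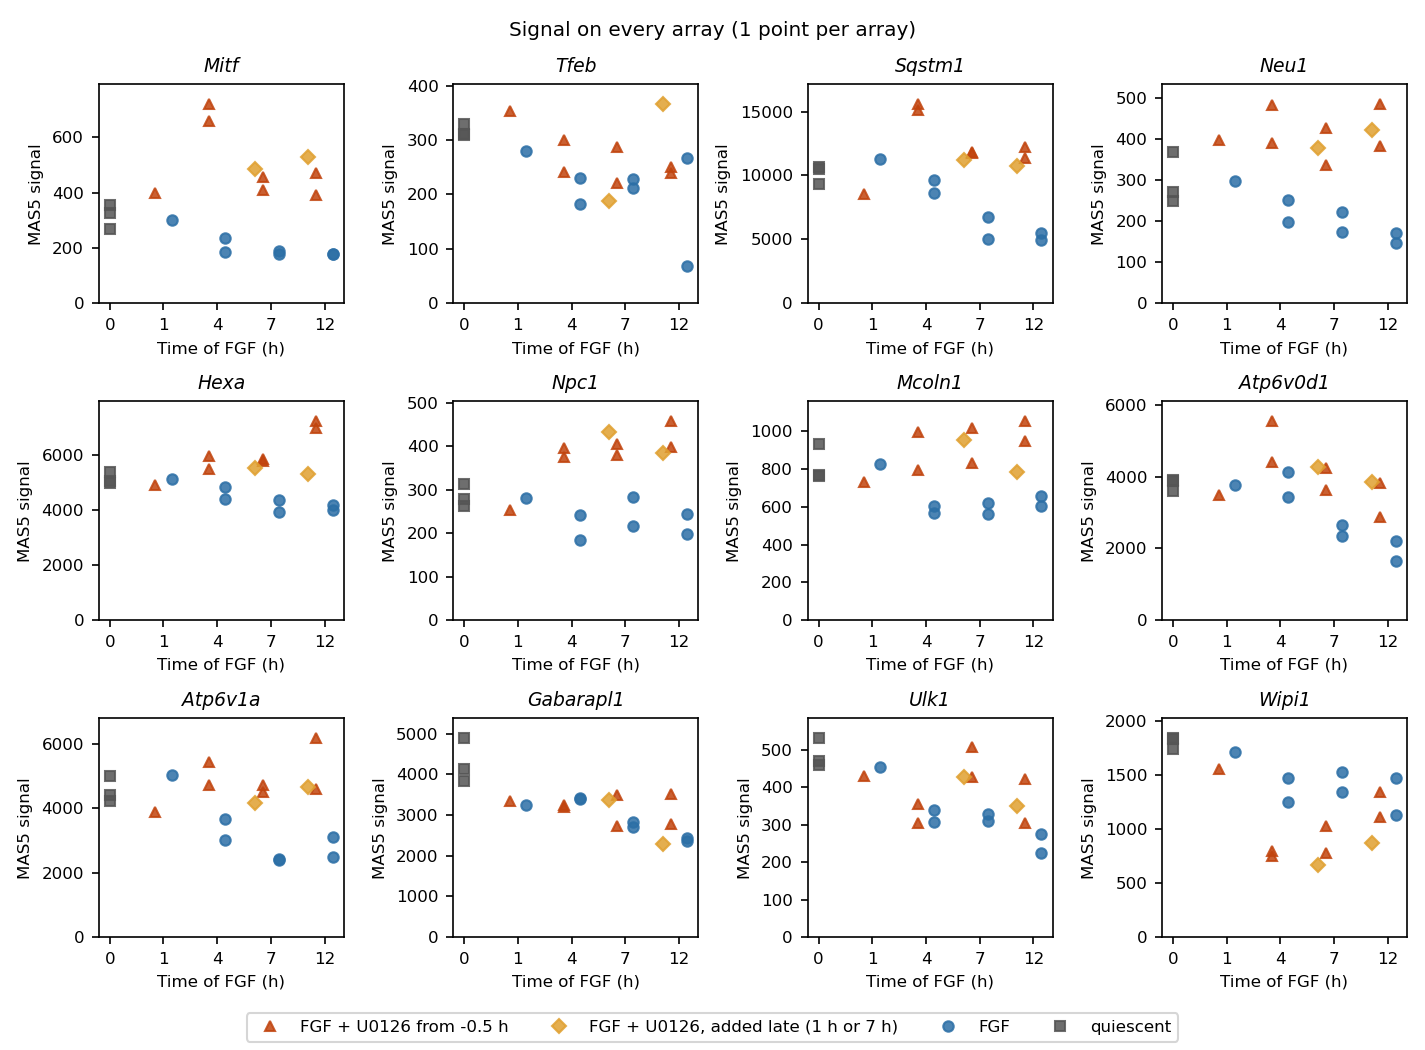
Signal of 12 members on every array, against the time of FGF on a categorical axis (0 is quiescent) with the MAS5 signal on a linear axis from 0. Triangles are FGF + U0126 from -0.5 h, diamonds the late additions, circles FGF alone and squares quiescent cells. For Mitf every triangle at 4, 7 and 12 h lies above every circle at these times, and for Wipi1 the triangles at 4 and 7 h lie below the circles.

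In the proton pump, all 4 subunits other than Atp6v0d1 rose with U0126. Atp6v1a encodes the catalytic subunit that hydrolyses ATP in the cytosolic sector. With U0126 the signal was 5439 and 4716 at 4 h, 4499 and 4714 at 7 h, and 6174 and 4602 at 12 h, against 3659 and 3004, 2439 and 2399, and 3105 and 2490 with FGF alone at the same times. The quiescent arrays read 4425, 5018 and 4232. Arrays with U0126 stood within or above the quiescent range, and all arrays with FGF alone from 4 h on stood below it. The mean U0126 effect was 0.82 on the log2 scale (SE 0.09, adjusted p = 1.4e-05 in limma). Atp6v1a also fell with FGF at 7 h (-0.88, adjusted p = 0.0024) and at 12 h (-0.68, adjusted p = 0.0076). The 12 h call was lost without FGF 12 h replicate 2 (adjusted p = 0.096).

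The other pump members changed less. Atp6v0a1, a membrane-sector subunit, had a median signal of 399.75 (265 to 544) on the 6 U0126 arrays and 294 (146 to 376) on the 6 FGF arrays, and the groups overlapped. Its mean effect was 0.56 (adjusted p = 0.041), and 8 of the 12 fits with 1 array left out did not call it (adjusted p up to 0.13). Atp6v1h, a regulatory subunit of the cytosolic sector, had 2652 (2039.9 to 3319) with U0126 and 1990.2 (1698 to 2645) with FGF. Its effect was 0.38 (adjusted p = 0.032), and 7 of the 12 fits did not call it (adjusted p up to 0.10). Atp6ap1, an accessory protein needed to assemble the pump, had 3842 (2817 to 4510.4) with U0126 and 2849.95 (2536 to 3441) with FGF. Its effect was 0.38 (adjusted p = 0.016), and 4 of the 12 fits did not call it (adjusted p up to 0.054).

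Among the 22 soluble hydrolases and their cofactors, 8 rose with U0126, none fell and 14 did not pass, with a median of 0.17. Neu1, the lysosomal sialidase, changed the most among them. The arrays with U0126 read 483 and 389 at 4 h, 427 and 337 at 7 h, and 484 and 383 at 12 h, against 252 and 197, 223 and 172, and 171 and 147 with FGF alone at those times. The quiescent arrays read 272, 368 and 249. The lowest array with U0126 was above the highest with FGF. Neu1 was 2.09-fold higher with U0126 (log2 difference 1.06, SE 0.14, adjusted p = 4.2e-05 in limma).

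Hexa encodes the alpha subunit of the hexosaminidase that degrades GM2 ganglioside. Its signal with U0126 was 5947 and 5479.5 at 4 h, 5841 and 5766 at 7 h, and 6965 and 7223 at 12 h, against 4403 and 4842, 3929.5 and 4356, and 4000 and 4168 with FGF alone at those times. The U0126 arrays were all above the quiescent arrays, which read 4972, 5381 and 5065, and the FGF arrays were all below them. The mean U0126 effect was 0.53 (SE 0.07, adjusted p = 3.7e-05 in limma). Lipa, the acid lipase that frees cholesterol from its esters, had a median of 2713 (2102 to 2893) on the U0126 arrays and 1926 (1383 to 2013) on the FGF arrays of 4, 7 and 12 h, against 2648 to 2740 in quiescent cells. It rose by 0.52 with U0126 (SE 0.08, adjusted p = 3.7e-04).

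Smaller rises were seen for Tpp1, a peptidase that removes tripeptides from protein ends, and for Asah1, acid ceramidase. Tpp1 had a median of 6824 (5645 to 7647) with U0126 and 5266 (4244 to 6232) with FGF, a log2 difference of 0.34 (adjusted p = 0.0050 in limma). Asah1 had 7478 (7000.5 to 8034) with U0126 and 6048 (5713 to 6478) with FGF, a difference of 0.30 (adjusted p = 0.0040). Both calls were also made with any 1 of the 12 arrays left out. Psap, the precursor of the saposins that help degrade sphingolipids, had 12217 (10900 to 13171) with U0126 and 10629.6 (9442 to 11692) with FGF. Its difference was 0.23 (adjusted p = 0.020), lost without FGF 4 h replicate 2 (0.065) or U0126 7 h replicate 1 (0.062).

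Naglu, an exoglycosidase of heparan sulfate breakdown, and Gla, alpha-galactosidase A, rose with U0126, while their differences between FGF at 12 h and quiescence were positive (0.41 and 0.57, adjusted p = 0.44 and 0.10 in limma). Naglu had a median of 648 (479 to 915) with U0126 and 448 (263 to 721) with FGF, against 354 to 559 in quiescent cells. Its mean U0126 effect was 0.62 (SE 0.19, adjusted p = 0.026 in limma). Gla had 1180.3 (835 to 1707) with U0126 and 883 (694 to 1049) with FGF, against 583 to 780 in quiescent cells. Its effect was 0.43 (SE 0.13, adjusted p = 0.032). For each of these genes 6 of the 12 fits with 1 array left out did not call the effect (adjusted p up to 0.088 for Naglu and 0.11 for Gla).

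The remaining 14 hydrolases and cofactors did not pass, although Ctsa, which protects neuraminidase and beta-galactosidase, rose (0.17, adjusted p = 0.036, and 0.34 without the block) and Gusb fell in the block fit. Ctsb, Ctsl and Ctsz, lysosomal cysteine cathepsins, Npc2, the luminal cholesterol carrier, Glb1, beta-galactosidase, and Ppt1, a thioesterase that removes fatty acids from proteins, had mean U0126 effects between -0.05 and 0.05. The 95% interval of the Ctsl effect was -0.22 to 0.13 and that of Ctsb -0.18 to 0.10. Ctsd, the aspartic protease, had a median of 8073 (7386 to 9887) with U0126 and 7414 (5517 to 9631) with FGF, a difference of 0.16 (adjusted p = 0.26). Gusb, beta-glucuronidase, ran the other way, with 850.4 (517 to 1186) with U0126 and 1111 (678 to 1585) with FGF. Its difference of -0.37 (adjusted p = 0.15) passed with the experiment as a block (adjusted p = 8.5e-04).

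The signals of 4 cathepsins were too weak to follow. Ctsf, Ctsh, Ctsk and Ctss had mean signals of 16.8, 39.7, 40.5 and 16.7, all under 45.2, the 40th percentile of all values, and they exceeded that level of their array on 2, 5, 10 and 2 of the 19 arrays. Their differences are mostly differences between weak signals. The other 36 measured members exceeded it on all 19 arrays, with mean signals from 256 for Tfeb to 19431 for Ctsl.

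Among the 5 membrane proteins measured, 3 rose with U0126 and none fell. Npc1 encodes the membrane protein that moves cholesterol out of lysosomes. With U0126 it read 374 and 395 at 4 h, 405 and 379 at 7 h, and 457 and 397 at 12 h, against 241 and 183, 282 and 217, and 244 and 198 with FGF alone at those times. Quiescent cells read 277, 312 and 262. The U0126 arrays were above all quiescent arrays. The mean effect was 0.79 (SE 0.12, adjusted p = 2.6e-04 in limma).

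Mcoln1 encodes TRPML1, the calcium channel of the lysosomal membrane. Its signal with U0126 was 996 and 797 at 4 h, 1020 and 831 at 7 h, and 948 and 1053 at 12 h, against 603 and 566, 562 and 623, and 660 and 606 with FGF alone at those times. Quiescent cells read 769, 934 and 764, between these groups or within the U0126 range. The mean effect was 0.62 (SE 0.10, adjusted p = 2.3e-04 in limma). Lamp1 had a median of 12302 (10854 to 12809.6) with U0126 and 10457 (8876 to 10960) with FGF, a difference of 0.22 (adjusted p = 0.032) that 9 of the 12 fits with 1 array left out did not call (adjusted p up to 0.094). Lamp2 (0.28, adjusted p = 0.16) and Scarb2, the receptor that carries glucocerebrosidase to lysosomes (0.23, adjusted p = 0.080), passed with the experiment as a block (adjusted p = 0.0015 and 0.0099).

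Of the 6 autophagy members, 3 rose with U0126 and 1 fell. Sqstm1, which encodes the cargo receptor p62, showed the smallest p-value of the list. Its signal with U0126 was 15153 and 15564 at 4 h, 11765 and 11867 at 7 h, and 11361 and 12238 at 12 h. With FGF alone it was 8640 and 9624.5 at 4 h, 4992 and 6746 at 7 h, and 4959.7 and 5467 at 12 h. Quiescent cells read 9359.7, 10697 and 10487, below every array with U0126 at these times. Sqstm1 was 1.98-fold higher with U0126 (log2 difference 0.98, SE 0.08, adjusted p = 5.6e-07 in limma). It fell with FGF relative to quiescence by 0.82 at 7 h (adjusted p = 0.0015) and by 0.97 at 12 h (adjusted p = 1.9e-04) on the log2 scale.

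Wipi1, a lipid-binding protein of early autophagic membranes, fell with U0126. Its signal with U0126 was 752 and 800 at 4 h, 778 and 1026 at 7 h, and 1344 and 1113 at 12 h, against 1469 and 1254, 1340 and 1527, and 1476 and 1133 with FGF alone at those times. Quiescent cells read 1742, 1834 and 1839, above every other array. The groups were apart at 4 and 7 h and overlapped at 12 h. The mean effect was -0.52 (SE 0.10, adjusted p = 0.0018 in limma), with -0.80 at 4 h, -0.67 at 7 h and -0.08 at 12 h.

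The start of autophagy was represented by Ulk1 and Becn1. Ulk1, the initiating kinase, had a median of 388 (303 to 507) with U0126 and 310 (224 to 340) with FGF, against 460.5 to 530.4 in quiescent cells. Its U0126 effect was 0.35 (adjusted p = 0.047 in limma), and 9 of the 12 fits with 1 array left out did not call it (adjusted p up to 0.15). Becn1, which encodes Beclin 1, had 3915 (2967 to 4483) with U0126 and 2837 (2546 to 3272) with FGF, against 2198 to 3719 in quiescent cells. Its effect was 0.38 (adjusted p = 0.014), lost if replicate 2 of FGF was left out at 4 h (0.0503) or at 12 h (0.0502).

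The LC3 and GABARAP family members did not pass for U0126. Gabarapl1 had a median of 3229.5 (2721 to 3516) with U0126 and 2767 (2354 to 3410) with FGF, against 3828 to 4880.5 in quiescent cells. Its U0126 effect was 0.15 (adjusted p = 0.23 in limma, 95% interval -0.02 to 0.33). Map1lc3b, which encodes LC3B, had 10908 (9578 to 12754) with U0126 and 8625 (7097 to 12326) with FGF, against 10030.2 to 13840.5 in quiescent cells. Its effect of 0.30 (adjusted p = 0.10) passed with the experiment as a block (adjusted p = 0.0077).

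For 11 of the 20 calls over the mean of the times, leaving out any 1 of the 12 arrays kept adjusted p under 0.05: Hexa, Neu1, Tpp1, Lipa, Asah1, Npc1, Mcoln1, Atp6v1a, Mitf, Sqstm1 and Wipi1. The count was 11 if FGF 4 h replicate 2 was left out and 12 if FGF 12 h replicate 2 was. Without the array of 4 h the calls lost were Gla, Naglu, Psap, Lamp1, Atp6v0a1, Atp6v1h, Atp6ap1, Ulk1 and Becn1, and without the array of 12 h the same genes except Psap. Without FGF 7 h replicate 2, the calls of Gla, Naglu, Lamp1, Atp6v0a1, Atp6v1h and Ulk1 were lost. Without replicate 1 of U0126, Gla, Naglu, Lamp1 and Atp6v1h were lost at each of the 3 times, with Atp6ap1 and Ulk1 at 4 h, Atp6ap1 and Psap at 7 h, and Atp6v0a1 at 12 h. Without replicate 2 of U0126, Ulk1 was lost at each time, with Atp6v0a1 at 4 and 7 h and Lamp1 at 12 h. Without replicate 1 of FGF, Lamp1, Atp6v0a1 and Ulk1 were lost at 4 and 7 h, and Atp6v1h at 12 h.

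The time course with FGF alone was set against quiescent cells. Relative to quiescent cells, the members' median log2 difference was -0.01 at 1 h, -0.16 at 4 h, -0.27 at 7 h and -0.34 at 12 h, against 0.00, -0.09, -0.05 and -0.02 over all genes. At 1 h, with a single FGF array that the fit assumes to vary like the other groups, no member was called in limma's fit (0.480% of all genes were) and 1 had an unadjusted p under 0.05. At 4 h none was called (8.89% of all genes), 7 had an unadjusted p under 0.05, all of them lower, and with the experiment as a block 3 fell (10.6% of all genes fell in that fit): Lipa, Mcoln1 and Atp6v1a. The comparisons share the quiescent arrays. Their FGF arrays of 4, 7 and 12 h also serve, with opposite sign, in the comparisons of U0126 with FGF. Low signal on an FGF array thus moves a gene down with FGF and up with U0126. Since the list was chosen on FGF against quiescence, nothing is read from these counts against the background.

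At 7 h 5 members fell with FGF and none rose, with 12.7% of all genes called (7.20% lower). They were Lipa, Atp6v1a, Mitf, Sqstm1 and Gabarapl1. The block fit had 11 that fell and 1, Gusb, that rose (12.5% of all genes lower and 9.18% higher). The count of 5 was 3 without quiescent replicate 1b, 2 if quiescent replicate 2 was left out and 2 if FGF 7 h replicate 2 was. Atp6v1a and Sqstm1 were called in every fit with 1 array left out.

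At 12 h 11 members fell with FGF and none rose, with 20.3% of all genes called (11.8% lower). The hydrolases and cofactors Ctsd, Neu1, Psap, Tpp1 and Lipa, the pump subunit Atp6v1a, Mitf, and the autophagy genes Sqstm1, Gabarapl1, Map1lc3b and Ulk1 were called. No membrane protein of the list passed, although Lamp2 fell in the block fit (-0.38, adjusted p = 0.0097). With the experiment as a block 17 fell and 3, Gla, Gusb and Naglu, rose (17.6% of all genes lower and 12.4% higher). Both FGF arrays at 12 h lay below all 3 quiescent arrays for 23 of the 39 members (25.7% of all genes) and above them for 3, Ctsk, Gla and Gusb (21.8% of all genes).

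Ulk1 had 276 and 224 with FGF at 12 h, against 530.4, 460.5 and 469 in quiescent cells. Its log2 difference was -0.92 (SE 0.20, adjusted p = 0.0050 in limma). Gabarapl1 had 2426 and 2354 with FGF at 12 h, against 3828, 4880.5 and 4131 in quiescent cells. Its difference was -0.82 (adjusted p = 9.0e-04). With both arrays below every quiescent array, both groups were fully apart in these genes.

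Lipa had 1733 and 1383 with FGF at 12 h, against 2648, 2686 and 2740 in quiescent cells, a difference of -0.80 (adjusted p = 0.0012 in limma). Neu1 had a difference of -0.78 (adjusted p = 0.030), with 171 and 147 with FGF, against 272, 368 and 249 in quiescent cells. Map1lc3b had 7368 and 7097 with FGF, against 13840.5, 13508 and 10030.2 in quiescent cells, a difference of -0.69 (adjusted p = 0.034). In each of these genes the groups did not overlap. Ctsd had 7349 and 5517 with FGF, against 8951, 10322 and 8978 in quiescent cells, a difference of -0.54 (adjusted p = 0.024). Tpp1 (-0.52, adjusted p = 0.013) and Psap (-0.40, adjusted p = 0.020) fell less.

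Of the 11 calls at 12 h, Lipa, Sqstm1 and Gabarapl1 were made in every fit with 1 array left out, and 3 members in all were called without FGF 12 h replicate 2. Without that array adjusted p was 0.25 for Ctsd, 0.16 for Neu1, 0.084 for Psap, 0.13 for Tpp1, 0.096 for Atp6v1a, 0.086 for Mitf, 0.14 for Map1lc3b and 0.058 for Ulk1. Leaving out the other FGF array of 12 h, replicate 1, gave 0.068 for Neu1, 0.075 for Psap, 0.088 for Mitf and 0.11 for Map1lc3b. Among quiescent arrays, leaving out replicate 2 gave 0.076 for Ctsd, 0.052 for Neu1 and 0.082 for Psap, and leaving out replicate 1b gave 0.057 for Neu1.

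**Figure D4:**
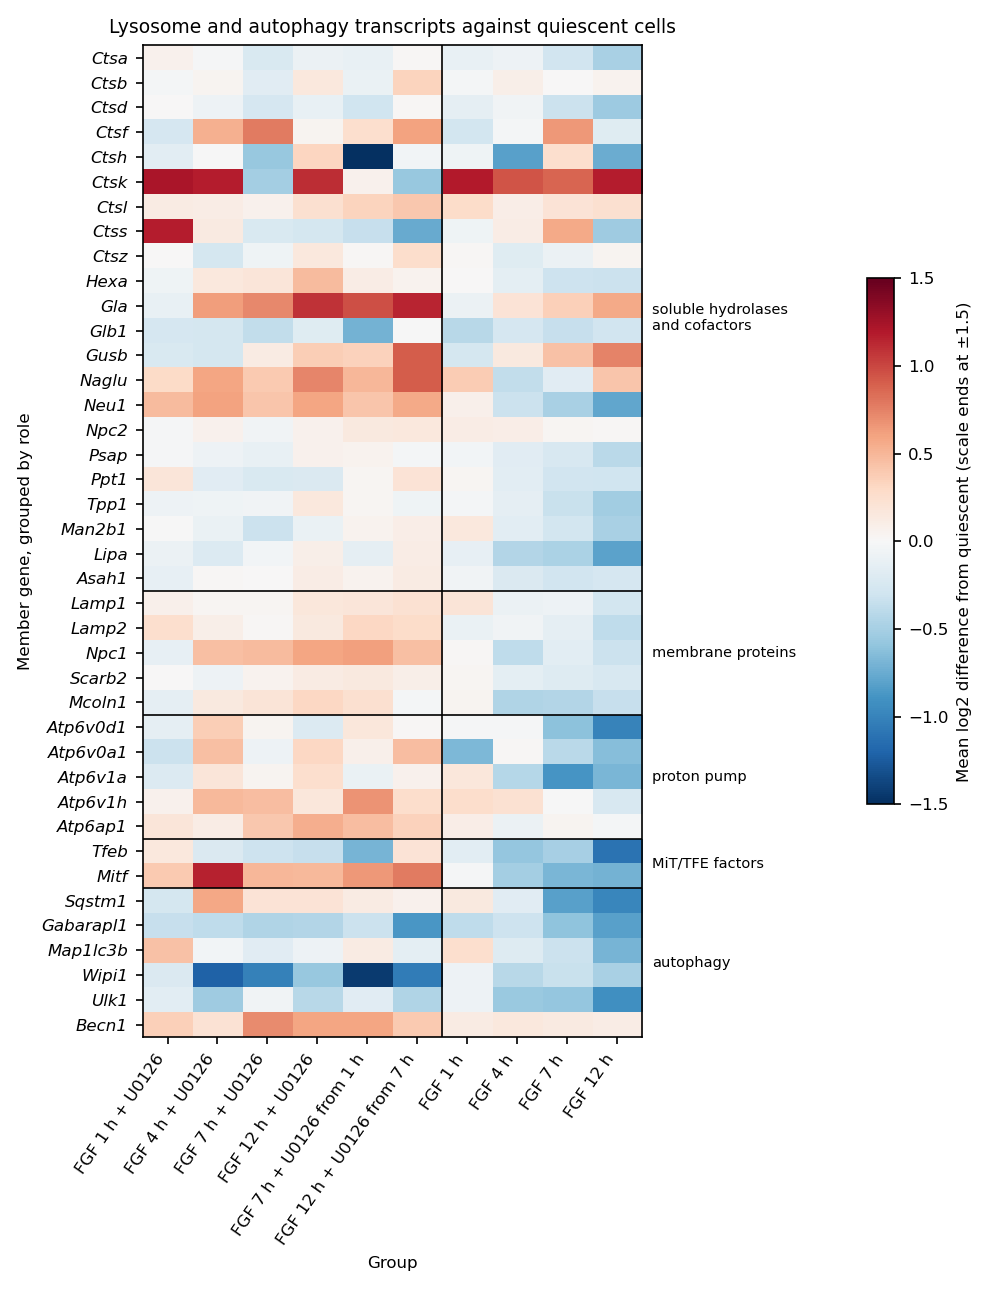
Mean log2 difference from quiescent cells for the 40 measured members (rows, grouped by role) in each group with FGF (columns), with U0126 columns left of the line and FGF alone right of it. Red is higher and blue lower than in quiescent cells, the colour scale ends at 1.5 in each direction, and groups have 1 or 2 arrays. The FGF 12 h column is blue for most members, at -0.97 for Sqstm1, and the matching U0126 column is at 0.20 for that gene.

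The U0126 effect was called at each time separately for fewer members. At 4 h 6 rose and 1 fell, with 5.94% of all genes called (3.19% higher and 2.75% lower): Neu1, Npc1, Mcoln1, Atp6v1a, Mitf and Sqstm1 rose and Wipi1 fell. At 7 h 6 rose and 1 fell, with 6.08% of all genes called (3.03% higher and 3.05% lower): Hexa took the place of Npc1 among those that rose. At 12 h 12 rose and none fell, with 12.0% of all genes called (6.26% higher), and the block fit called 24 higher (11.5% of all genes higher). The 12 were Hexa, Neu1, Psap, Tpp1, Lipa, Asah1, Lamp1, Npc1, Mcoln1, Atp6v1a, Mitf and Sqstm1. Neu1, Mcoln1, Atp6v1a, Mitf and Sqstm1 were thus called at all 3 times. The block fit raised the 7 h counts to 12 that rose and 1 that fell (6.27% of all genes higher and 6.30% lower).

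The members' median U0126 effect was 0.14 at 4 h, 0.16 at 7 h and 0.44 at 12 h, against 0.05, -0.04 and 0.05 over all genes. Tpp1 had effects of 0.06, 0.28 and 0.68 at these times and Lipa 0.24, 0.43 and 0.89. Wipi1 had -0.80, -0.67 and -0.08. A test of the difference between times, limma's F test, called none of the 39 members (0.987% of all genes were called). Unadjusted p was 0.018 for Tpp1, 0.019 for Lipa, 0.026 for Wipi1 and 0.028 for Hexa. In the block fit Tpp1 passed (adjusted p = 0.045), with 3.82% of all genes called.

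Fewer members were called at single times when any 1 array was left out. Each such fit also has fewer arrays and so less power. At 4 h the count of 7 became 2 or 3 without any 1 of the 4 arrays, and Mitf was the only member called in all 4 of those fits (adjusted p up to 0.0036 in limma). At 7 h it became 3 or 4, and Atp6v1a, Mitf and Sqstm1 were called in all 4. At 12 h it lay between 6 and 11, with 6 without FGF 12 h replicate 2. Hexa, Neu1, Lipa, Atp6v1a, Mitf and Sqstm1 were called in all 4 of the fits at 12 h.

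Cells with FGF and U0126 were also set against quiescent cells. In this comparison 2 members rose and 1 fell at 4 h, 1 rose and 1 fell at 7 h, and 2 rose at 12 h, which is 7.69%, 5.13% and 5.13% of the 39 members, against 7.33%, 9.02% and 5.37% of all genes called at these times. These shares are near the background or below it. At 4 h Mitf (1.15, adjusted p = 0.0027 in limma) and Sqstm1 (0.58, adjusted p = 0.020) were above the quiescent level, and Wipi1 was below it (-1.21, adjusted p = 6.4e-04). Wipi1 was also below it at 7 h (-1.01, adjusted p = 0.0022), when Becn1 was above it (0.71, adjusted p = 0.019). At 12 h Gla (1.08, adjusted p = 0.013) and Hexa (0.47, adjusted p = 0.027) were above it.

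With the experiment as a block, 6 rose and 2 fell at 4 h, 4 rose and 2 fell at 7 h, and 7 rose and 2 fell at 12 h (15.0%, 18.6% and 14.4% of all genes called). Gabarapl1 was below the quiescent level in that fit at all 3 times, by 0.39, 0.45 and 0.44 on the log2 scale. Gla was above it at all 3 times, with differences of 0.62, 0.72 and 1.08. Without the block, Wipi1 at 4 and 7 h and Mitf at 4 h were called in each fit with 1 array left out. The calls of Sqstm1 were lost without quiescent replicate 2 or either U0126 array (adjusted p up to 0.10), those of Becn1 without quiescent replicate 1b or 2 or either U0126 array (up to 0.255), those of Hexa without quiescent replicate 2 or either U0126 array (up to 0.18), and those of Gla without quiescent replicate 2 or U0126 12 h replicate 1 (up to 0.17). At 12 h the count of 2 was 0 without quiescent replicate 2, 0 without U0126 replicate 1 and 1 without U0126 replicate 2.

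Late addition of U0126 was measured on 1 array at each time, which limma's fit assumes to vary like the other groups. Both late arrays were of experiment 1, while the FGF arrays at 7 and 12 h were of experiments 1 and 2. A difference between the experiments thus enters the late differences in the main fit. With U0126 added at 1 h and cells taken at 7 h, Mitf read 484, against 188 and 178 with FGF alone at 7 h. Sqstm1 read 11195, against 4992 and 6746, and Atp6v1a 4177, against 2439 and 2399. Wipi1 read 663, against 1340 and 1527 with FGF alone. In these genes the array with late U0126 lay outside the range of the FGF arrays. A single array often lies outside the range of 2 others without any effect, and the share over all genes was not counted.

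At 7 h 3 members rose, Mitf (1.34, adjusted p = 0.0055 in limma), Sqstm1 (0.95, adjusted p = 0.0047) and Atp6v1a (0.78, adjusted p = 0.041), and Wipi1 fell (-1.09, adjusted p = 0.0091), with 3.57% of all genes called. The members' median was 0.34, against -0.03 over all genes. The call of Atp6v1a was lost without FGF 7 h replicate 1 (0.085) or 2 (0.15), and that of Wipi1 without FGF 7 h replicate 2 (0.061), which left 2 calls. In the block fit 7 rose and 1 fell (7.48% of all genes), with Hexa, Neu1, Mcoln1 and Atp6v1h added.

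With U0126 added at 7 h and cells taken at 12 h, Mitf read 527, against 179 and 179 with FGF alone at 12 h. Sqstm1 read 10717, against 4959.7 and 5467, and Neu1 422, against 171 and 147 with FGF alone. In each the late array was at least as high as the highest quiescent array, for Sqstm1 narrowly (10717 against 10697). The share of all genes with such a reading was not counted. Tfeb read 366, against 268 and 68.8 with FGF alone, and its difference of 1.32 did not pass. That difference leans on the reading of 68.8. In all 5 members rose and none fell, with 5.04% of all genes called (2.46% higher): Mitf (1.49, adjusted p = 0.0026 in limma), Sqstm1 (1.04, adjusted p = 0.0025), Neu1 (1.34, adjusted p = 0.013), Lipa (0.91, adjusted p = 0.0072) and Atp6v1a (0.74, adjusted p = 0.044). The members' median was 0.50, against 0.04 over all genes. Without FGF 12 h replicate 2 only Mitf and Sqstm1 were called, and adjusted p was 0.081 for Neu1, 0.066 for Lipa and 0.24 for Atp6v1a. These comparisons share their FGF arrays with the comparisons of early U0126 at the same times.

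At 1 h there was 1 array with U0126 and 1 with FGF alone, so only values are given. The members' median log2 difference was -0.01, with 0.02 over all genes, and 19 of 39 were above 0. The values ran from -0.41 to 1.23. The highest was that of Ctss, with weak signals of 51.6 with U0126 and 14.1 with FGF alone, and it was the only member past a 2-fold difference (4.95% of all genes were that much higher and 6.69% that much lower). Mitf read 399 with U0126 and 299 with FGF alone, and Sqstm1 read 8519 with U0126 and 11298 with FGF alone.

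Of 28 members with several probe sets, 17 had one sign on all of them for the mean U0126 effect, 14 for FGF at 12 h against quiescence and 11 for both. All 3 probe sets of Lipa, 4 of Lamp2, 4 of Map1lc3b and both of Tpp1, Psap, Atp6v1a, Sqstm1, Gabarapl1 and Ulk1 had lower signal with FGF at 12 h and higher signal with U0126. The FGF arrays of 12 h enter both comparisons, with opposite sign. Low signal on those arrays alone lowers the FGF difference and raises the U0126 difference, so these directions do not support each other independently. Mitf had a second, dim probe set with a mean signal of 52.5, whose mean U0126 difference was 0.91 and whose FGF difference at 12 h was 0.37. Neu1 had dim probe sets with mean signals of 36.7 and 25.7, at 0.86 and -0.04 for U0126. Of the 6 probe sets of Wipi1, all were lower with U0126, and 1 of them was higher with FGF at 12 h (0.27). Opposite signs for U0126 were also found among the probe sets of 10 other members. Called ones were Becn1 (-0.38 and -0.11 on dimmer probe sets), Atp6v0a1 (-0.67), Atp6v1h (-0.27) and Mcoln1 (-0.10). The others were Ctsa (-0.17), Man2b1 (-0.18), Ppt1 (-0.15), Ctsl (0.99 on a dimmer probe set), Ctsf and Ctsh. Directions of these genes and of Neu1 hold for the brightest probe set.

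Other genes of the same pathways were taken from lists by role. With U0126, averaged over 4, 7 and 12 h, 7 of 12 other pump subunits rose and none fell (median 0.24). Atp6v0b, a membrane-sector subunit, rose by 1.03 (SE 0.06, adjusted p = 3.5e-08 in limma), Atp6v1g1 by 0.62, and Atp6ap2 and Atp6v0e2 by 0.47 each. Of 21 other hydrolases and activators, 7 rose and none fell (median 0.32). Idua, which cleaves iduronic acid from glycosaminoglycans, rose by 0.67, the asparaginyl protease Lgmn by 0.59, Scpep1 by 0.57 and Plbd2 by 0.40. The all-gene median in this comparison was 0.01 and 22.0% of all genes were called (11.7% higher and 10.3% lower).

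Of 23 other membrane, transport and sorting genes, 7 rose and 1 fell (median 0.14). Over all genes 11.7% rose and 10.3% fell in this comparison. Ctns, the cystine transporter, rose by 0.63, Gnptg by 0.61 and Mfsd8 by 0.57, and Gnptab fell by 0.55 on the log2 scale. Gnptg and Gnptab encode different subunits of the enzyme that starts the mannose 6-phosphate tag, and they moved in opposite directions. Of 29 other autophagy genes, 8 rose and none fell (median 0.11). Fyco1, which links autophagosomes to kinesin, rose by 0.85, Atg10 by 0.68, Bnip3 by 0.63 and Plekhm1 by 0.43.

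Of 18 other regulators of MiT/TFE factors and mTORC1, 5 rose and none fell (median 0.11), while 11.7% of all genes rose. Flcn, folliculin, rose by 0.81, and its partners Fnip2 and Fnip1 by 0.78 and 0.76. Rragc, a GTPase that brings MiT/TFE factors and mTORC1 to lysosomes, rose by 0.52. Adjusted p in limma was between 1.2e-05 for Fnip2 and 0.0013 for Flcn.

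With FGF at 12 h relative to quiescence, 12 of the 29 other autophagy genes fell and none rose (median -0.37). Of all genes 20.3% were called (11.8% lower). Rb1cc1, which encodes the ULK1 partner FIP200, fell by 1.42 on the log2 scale (adjusted p = 5.9e-05 in limma), and Fyco1 by 1.27. In the same comparison 6 of 21 hydrolases, 3 of 23 membrane and sorting genes, 2 of 12 pump subunits and 5 of 18 regulators fell, and none of these lists had a gene that rose. In the block fit 14 of the 21 hydrolases rose with U0126 (16.7% of all genes rose). In that fit 2 of the 23 membrane and sorting genes rose (12.4% of all genes) and 5 fell (17.6%) with FGF at 12 h. No other list count in these comparisons moved by over 1.5-fold. The lists were not refitted with single arrays left out.

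**Figure D5:**
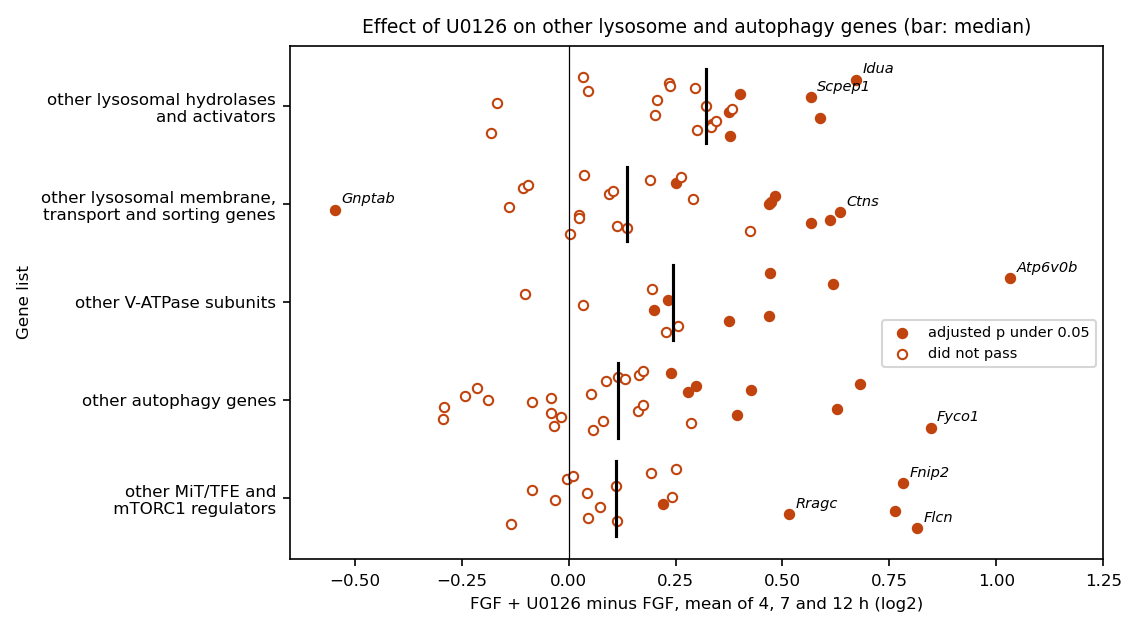
Effect of U0126 on the other lysosome and autophagy genes, as the log2 difference of FGF + U0126 minus FGF averaged over 4, 7 and 12 h, in 5 lists (rows). Filled points passed the adjusted limit, open points did not, and black bars are list medians, from 0.11 to 0.32. Atp6v0b at 1.03 is the highest and Gnptab at -0.55 the lowest of those that passed.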

How the data were processed

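RNA of 19 samples was measured on 19 arrays. Values are MAS5 signal intensity, scaled by the authors to a mean of 500 after trimming 2% at each end, per the labels, and MAS5 is named in the submitters' processing notes, without a version. The arrays held 45101 probe sets, of which 64 were controls, 34945 carried 1 gene, 932 several and 9160 none. The log2 of each signal plus 13.6, the 20th percentile over the whole data set, was analysed, so changes of weak genes are understated. A probe set entered if 2 or more arrays had it over their own 40th percentile (34576 did), and the brightest one by mean stood for each of the 14996 genes. The 2 quiescent arrays of experiment 1 (1a and 1b) entered as their mean. All 11 groups were fitted together in limma 3.58.1 (R 4.3.3; eBayes with a variance trend, 7 residual and 7.42 prior degrees of freedom), tests were two-sided, with Benjamini-Hochberg adjustment across all genes and a limit of 0.05. The number of arrays limits the precision.

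Experiment numbers in the labels were checked for pairing: replicate deviations correlated between 0.126 and 0.303 over 21 pairs of groups (median 0.215). For that reason a fit with the experiment as a block was run as well. The main fit had no block, so p-values not said to come from the block fit ignore this pairing. The members and gene lists were chosen with earlier results of these data known. Values by sample, or their range and median over 6 arrays, are given for the MiT/TFE factors, the autophagy genes, Atp6v0d1 and up to 12 called members each way with the largest U0126 or FGF 12 h change, and from other lists up to 4 called genes are named, while Rb1cc1 was named after its values were seen. Alternatives were other normalization, scaling, offsets, filters, variance and probe set choices, the block, and leaving out each replicate. Figures were drawn with matplotlib 3.10.9. The workflow was tested on simulated data.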

Additional observations from a re-analysis of the deposited data

How the results depend on the processing

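Of 78 calls of single members, 15 were kept under every alternative run and 63 were lost under at least 1; the cause was not tested. Directions were turned 6 times, each with the probe set of highest variance in place of the brightest: Mitf in FGF 12 h against quiescence (0.37), Mitf at 12 h of U0126 (-0.33), Atp6v0a1 (-0.67) and Becn1 (-0.38) in the mean U0126 effect, Becn1 in U0126 at 7 h against quiescence (-1.33) and Neu1 in late U0126 at 12 h (-0.21).

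Counts of members called, for FGF at 7 h and 12 h against quiescence, the mean U0126 effect, U0126 at 4 h and 7 h, U0126 with FGF at 7 h and 12 h against quiescence and U0126 from 1 h at 7 h, were 3, 7, 11, 3, 3, 1, 0 and 2 without a variance trend. With the probe set of highest variance they were 2, 5, 12, 1, 3, 1, 0 and 1 for these comparisons, 3 for U0126 at 12 h, 1 for U0126 at 4 h against quiescence and 1 for U0126 from 7 h at 12 h. With 75th percentile scaling FGF at 7 h gave 3. With the replicate block the counts were 3, 12 and 20 for FGF at 4, 7 and 12 h, 13 and 24 for U0126 at 7 and 12 h, 8, 6 and 9 for U0126 with FGF at 4, 7 and 12 h against quiescence, 8 for U0126 from 1 h at 7 h and 1 for the test between times; it moved the other counts by less than 1.5-fold.

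With 1 replicate left out the counts ranged from 0 to 0 for FGF at 1 h and 4 h, 2 to 5 at 7 h and 3 to 12 at 12 h; from 11 to 20 for the mean U0126 effect, 2 to 3 at 4 h, 3 to 4 at 7 h and 6 to 11 at 12 h; from 2 to 3, 1 to 3 and 0 to 3 for U0126 with FGF against quiescence at 4, 7 and 12 h; from 2 to 3 for U0126 from 1 h, 2 to 7 for U0126 from 7 h, and 0 to 0 for the test between times. At 7 h of U0126 against quiescence the count was 1 without quiescent replicate 1b or 2 or either U0126 array. Quantile normalization, offsets of 1 and 45.2, no filter and a filter at the median on 4 arrays moved no count by 1.5-fold. The groups of 1 and 2 arrays and the weak signals of Ctsf, Ctsh, Ctsk and Ctss limit what can be seen.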
